A study of Mus musculus with 2 samples.

Results

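The genes described here encode the DNA replication machinery, the proteins that mark origins, unwind the template, copy it and supply the nucleotides. They were a list of 47 gene names, matched to the gene name of each probe without regard to case, and 45 of the 47 were found among the 27845 names on the array. All 45 found had a probe that passed the filter on dim signal. The names Rfc1 and Gins2 were not found, and their values under other names are given below. The RNA came from C2C12, a mouse myoblast line in established use, which the labels trace to leg muscle of adult C3H mice. The knockdown cells stably expressed a short hairpin RNA against Mybbp1a, and the control cells stably expressed a control hairpin. Both kinds of cells were mixed stable clones, grown subconfluent in serum-rich growth medium, so both groups carried a hairpin and both were undifferentiated. Mybbp1a is a nucleolar protein that binds transcription factors, and the study set cells depleted of it against control cells.

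Replication is prepared in G1 phase, when the origin recognition complex, Cdc6 and Cdt1 load the MCM ring onto DNA. In S phase the kinases, together with Mcm10, Cdc45 and the GINS complex, turn the loaded ring into a running helicase, and polymerases held by the clamp Pcna copy the strands. Most of these genes are known targets of the E2F transcription factors and are released from repression when cells commit to division. Proliferating myoblasts express them until they leave the cell cycle to form myotubes.

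The data were 2 two-colour arrays, called biological replicates in the labels, on which Cy5 carried the knockdown RNA and Cy3 the control RNA. No dye swap was made, so an effect of the dyes and an effect of the knockdown cannot be told apart. Between 64.9% and 79.7% of the spots in a channel were well above background. Mybbp1a itself had a log2 ratio of -1.64 on array 1 and -1.91 on array 2, which is 3.42-fold lower in the mean. That mean was -1.78 ± 0.19 (SD, n = 2) and its limma adjusted p was 0.177. Whether the arrays had separate infections or cultures behind them is not stated, so the p-values measure only the spread between these arrays, which may be technical. Of the myoblast markers, Myod1, Myf5, Des, Cdh15 and Chrna1 were well above background in both channels of both arrays. Of 7 markers of fibroblasts and matrix-producing cells 6 were measured, and all 6 read higher in the knockdown on both arrays, or 5 of the 6 under median centring of the arrays. Their mean log2 ratios ran from 0.20 for Lum to 3.16 for Col1a1. The log2 of their summed intensity was 17.12 to 17.55 in control and 18.21 to 18.45 in knockdown. Their part in the replication values was not tested. Of 4 markers each, 2 adipocyte genes (Fabp4 at -0.08, Cebpa at 0.58), 2 endothelial genes (Cdh5 at 0.86, Tek at 0.18) and 2 leukocyte genes (Cd68 at 0.02, Cd3e at 0.04) were measured. Adipoq, Pecam1, Kdr, Ptprc and Itgam did not pass the filter on dim signal, and Plin1 was not a name on the array.

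The probes read single positions of each transcript, and a few are printed because the values below rest on them. All are 60 bases long, in the orientation of the transcript, with positions on mouse build mm8 as the files give them. The probe of Orc1l lies at chr4:108110099-108111006, a span of 908 bases and so longer than the probe. The probe of Pcna lies at chr2:131941125-131941262 and was spotted 10 times on each array. Tyms has 2 bright probes, at chr5:30391852-30391911 and chr5:30391872-30392765. The 2 probes overlap over 40 bases, of which 39 match, and capitals mark the longest unbroken shared run, 23 bases.
Orc1l: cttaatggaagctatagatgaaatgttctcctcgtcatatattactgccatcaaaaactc
Pcna: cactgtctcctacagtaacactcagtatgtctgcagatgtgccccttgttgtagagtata
Tyms, brightest probe: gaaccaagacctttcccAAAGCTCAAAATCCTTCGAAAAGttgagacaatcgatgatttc
Tyms, other bright probe: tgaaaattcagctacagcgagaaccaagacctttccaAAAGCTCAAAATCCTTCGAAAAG

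Since E2F factors are the textbook regulators of this machinery, the promoters of the genes were searched for E2F-type letters. The promoter sequences are those of RefSeq on build GRCm38.p6, from 250 bases before to 50 after a gene's start, and they matched 39 of the 45 genes, all but Gmnn, Mcm4, Gins1, Prim2, Pole and Rfc2. The letters searched were TTTCGCGC, TTTGGCGC, TTTCCCGC and TTTGCCGC on either strand, which can overlap each other. Of the 39 genes, 13 (33.3%) held at least 1 of them, against 704 of the 27025 genes with a promoter in the table. CCAAT, the box bound by NF-Y, was found on either strand in 22 of the 39 (56.4%), against 41.1% of all genes. These matches describe letters in a window and are not measured binding sites.

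Windows around such matches show the letters of 1 match in capitals, as read on the strand of the gene. In the Mcm5 window a second match, GCGCCAAA, overlaps the capitals and runs on into the lower case. They are shown for some of the genes whose match lies upstream of the start, from Orc1l among the lowest ratios to Orc3l near 0. Pola1 and Rfc3 also have a match upstream of the start and are not shown. Their mean log2 ratios were -0.11 and -0.17. Orc1l is from chr4:108579409-108579452 on the plus strand and Cdc6 from chr11:98907995-98908038 on the plus strand. Mcm5 is from chr8:75109338-75109381 on the plus strand and Mcm6 from chr1:128359727-128359770 on the minus strand. Mcm7 is from chr5:138172023-138172066 and Orc3l from chr4:34614958-34615001, both on the minus strand.
Orc1l: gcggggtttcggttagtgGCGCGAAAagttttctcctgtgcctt
Cdc6: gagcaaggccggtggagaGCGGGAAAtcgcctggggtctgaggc
Mcm5: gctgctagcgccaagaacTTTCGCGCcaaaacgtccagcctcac
Mcm6: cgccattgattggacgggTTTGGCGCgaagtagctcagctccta
Mcm7: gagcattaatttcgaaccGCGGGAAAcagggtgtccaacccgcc
Orc3l: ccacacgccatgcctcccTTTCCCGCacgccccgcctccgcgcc

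Genes of the replication machinery read lower in the knockdown cells than in control cells by a small amount, after loess normalization and in Feature Extraction's own processed signals, but not under median centring. Loess and the processed signals are not separate checks on the balance of the dyes, as described below with the brightness of the genes. The median log2 ratio over the 45 genes was -0.33 on array 1 and -0.26 on array 2, and -0.25 for the mean of both, which is 1.19-fold lower. All 18204 genes tested had a median of 0.03 on either array. On both arrays 37 of the 45 read lower and 0 read higher, where 29.4% of all genes tested read lower on both and 40.6% higher. A log2 ratio of -0.32 or lower on both arrays, called clearly lower here, was found for 13 of the 45 against 3.18% of all genes tested. As large a ratio in the other direction was found for 0 of the 45 against 7.63%, and 0 were at least 2-fold lower on both, against 0.0549%. The term clearly lower marks the size of a ratio after loess and not a passed test. Under median centring 0 of the 45 reached that size on both arrays. After loess, the 8 genes with opposite signs on the arrays were Orc3l, Pold1, Pole, Pcna, Rfc4, Rpa3, Lig1 and Dut. Fewer cells in S phase and less RNA per cell cannot be told apart in RNA from whole cultures.

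No gene of the machinery passed limma's test at an adjusted p of 0.05, and neither did any of all 18204 genes (0%). At an unadjusted p under 0.05, limma gave 19 of the 45 lower and 0 higher, where 7.44% of all genes tested were lower and 13.4% higher. The 2 arrays left 1 degree of freedom for the spread. The limma adjusted p ran from 0.177 to 0.980 over the 45 genes. Feature Extraction's p-value, which its error model gives for a single array, was under 0.05 with a lower ratio on both arrays for 9 of the 45, against 2.55% of all genes tested. With a higher ratio it was so for 0 of the 45, against 5.16%. These 9 were Orc1l, Orc6l, Cdc6, Mcm10, Gins1, Rfc5, Rpa2, Tyms and Ung.

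The sign of these small values depends on how the dyes are balanced. With each array centred on its median in place of loess, the median over the 45 genes was 0.08 and that of all genes tested 0.21. Under that setting 13 of the 45 read lower on both arrays, against 12.2% of all genes, and 28 of the 44 genes with a negative mean turned positive. There limma's adjusted p called 17.5% of all genes tested higher and 0.346% lower, and 0 of the 45 in either direction. The machinery still lay below the bulk of genes there, with 30 of the 45 under the median of all genes on both arrays, against 37.2% of all genes. After loess that count was 40 of the 45, against 34.8%.

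The replication genes were also brighter than most. Their median log2 intensity, averaged over both channels and arrays, was 13.7, against 10.3 for all genes tested. Between the quartiles of the brightness of the machinery, 12.2 and 14.7, lay 3910 other genes and 23 genes of the machinery. After loess, the other genes in that range had a median log2 ratio of -0.01 and the 23 had -0.25. Under median centring the other genes had 0.32 and the 23 had 0.08, so the machinery lay lower than genes of like brightness under both settings. In the processed signals the other genes had -0.02 and the 23 had -0.25. The processed signals thus put the other bright genes near 0, as loess did. They are therefore not a separate check on how the dyes are balanced.

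**Figure D1:**
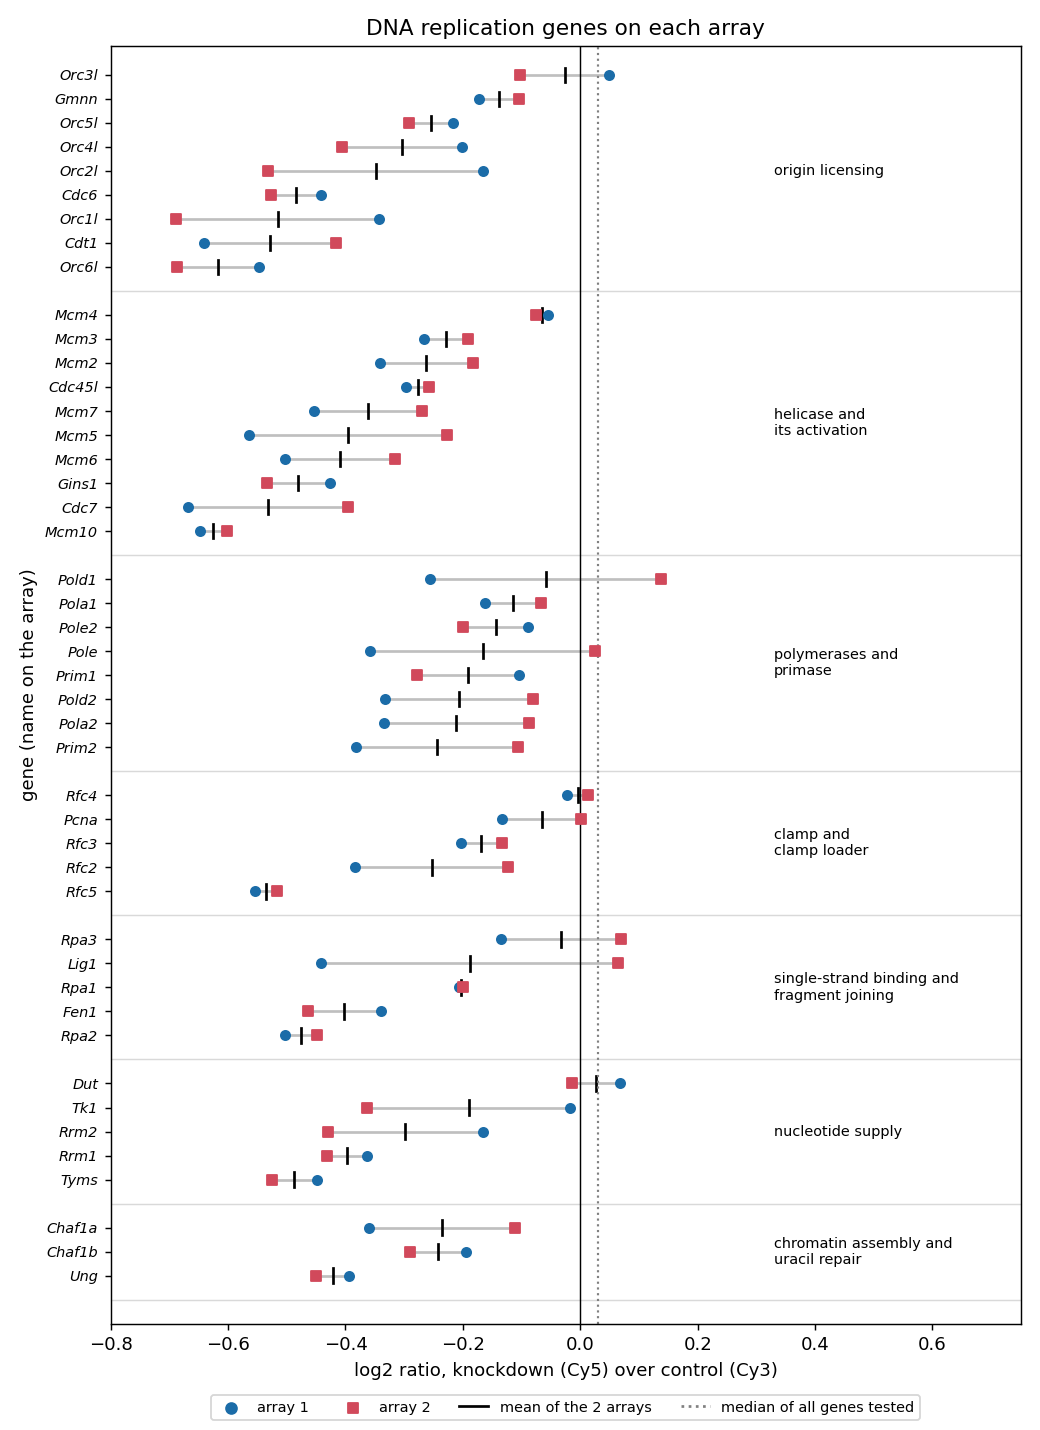
Log2 ratio of knockdown over control (horizontal axis) for each of the 45 replication genes (vertical axis, grouped by role), with a circle for array 1, a square for array 2 and a tick for their mean; the dotted line is the median of all genes tested, 0.03. All genes of the helicase group lie left of 0 on both arrays after loess, while 4 of those 10 do so under median centring, and the polymerases lie closer to 0.

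**Figure D2:**
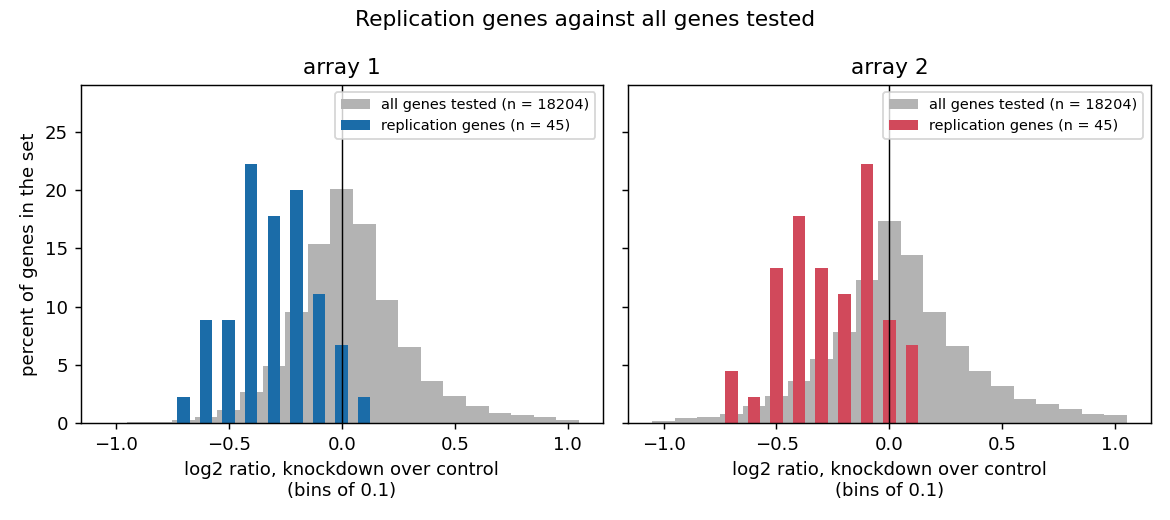
Percent of genes (vertical axis) in bins of the log2 ratio of knockdown over control (horizontal axis), for the 45 replication genes in colour and all 18204 genes tested in grey, 1 panel per array, after loess. The coloured bars sit left of the grey ones, with medians of -0.33 and -0.26 against 0.03; under median centring the medians of the mean ratio are 0.08 and 0.21.

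The genes that license origins included some of the lowest ratios. Over the 9 genes the median was -0.35, 8 read lower on both arrays and 4 were clearly lower on both. Under median centring the group's median was -0.07, and it was the only group with a median below 0 there. The origin recognition complex is the platform on which the ring is loaded. Its smallest subunit, Orc6l, had a log2 ratio of -0.55 on array 1 and of -0.69 on array 2. The log2 intensities of single channels given here and below were worked back from the ratio after loess. They are not the measured channel signals. For Orc6l they were 14.75 in control and 14.21 in knockdown on array 1, and 14.72 and 14.04 on array 2. The mean was -0.62 ± 0.10 (SD, n = 2; limma standard error 0.09), 1.53-fold lower. The ratio was below 0 on both arrays, also under median centring with -0.10 and -0.38. The limma adjusted p after loess was 0.177, which missed the threshold.

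Orc1l, the subunit that recruits the others and varies with the cell cycle, had -0.34 and -0.69 with the probe printed above. Orc2l had -0.17 and -0.53. Orc4l, an ATP-binding subunit, had -0.20 and -0.41. These subunits read lower on both arrays, and each was lower on array 2 than on array 1. Orc5l had -0.22 and -0.29. Orc3l stood apart with 0.05 and -0.10 and a mean of -0.03, so its arrays had opposite signs. Under median centring Orc3l had 0.25 and Orc4l 0.0042, whereas Orc1l had -0.26 and Orc6l -0.24.

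The loading factors Cdc6 and Cdt1 read lower on both arrays. Cdc6, the ATPase that works with the origin complex, had -0.44 on array 1 and -0.53 on array 2. Cdt1, which brings the MCM ring, had -0.64 and -0.42. Both were below 0 under median centring too, at -0.22 and -0.12. Gmnn encodes geminin, the inhibitor that binds Cdt1 to prevent a second loading. Gmnn had -0.17 and -0.11, a mean of -0.14 ± 0.05 with a limma standard error of 0.08 and adjusted p of 0.411, and it had 0.33 under median centring.

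All 10 measured genes of the helicase and its activation read lower on both arrays after loess. Their median was -0.38, and 3 were clearly lower on both arrays. Under median centring the group's median was 0.02, with 4 of the 10 lower on both. Mcm10, which helps to start the loaded helicase, had the lowest mean of the whole machinery. After loess its log2 intensities were 13.60 in control and 12.95 in knockdown on array 1, and 13.40 and 12.80 on array 2. The log2 ratios were -0.65 and -0.60. Their mean was -0.63 ± 0.03 (SD, n = 2; limma standard error 0.08), 1.54-fold lower, and the limma adjusted p of 0.177 missed the threshold. The arrays differed little for this gene, and under median centring it kept a mean of -0.32.

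The ring itself is built of Mcm2 to Mcm7. Mcm5 had -0.56 on array 1 and -0.23 on array 2. Mcm6 had -0.50 and -0.32. Mcm7 had -0.45 and -0.27. These subunits of the ring read lower on array 1 than on array 2. Mcm2 had -0.34 and -0.18, and Mcm3 had -0.27 and -0.19. Mcm4 was nearest to 0, with -0.05 and -0.07, a mean of -0.06 ± 0.01, a limma standard error of 0.08 and an adjusted p of 0.686. The 6 subunits of the ring thus ranged from -0.41 to -0.06 in the mean. Under median centring Mcm5 had -0.04, while Mcm2, Mcm3, Mcm4, Mcm6 and Mcm7 were above 0, from 0.05 to 0.41.

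Of the activators of the ring, Cdc7 and Gins1 had lower means than every subunit of it after loess, by their brightest probes. As the mean over its probes Cdc7 had -0.37, above Mcm6 at -0.41 and Mcm5 at -0.40, while Gins1 had -0.46. Cdc7, the kinase that phosphorylates MCM proteins to fire origins, had -0.67 on array 1 and -0.40 on array 2. Gins1, a subunit of the GINS complex, had -0.43 and -0.53. Both were below 0 on both arrays under median centring, with means of -0.25 and -0.19. Cdc45l, which joins GINS and MCM in the running helicase, had -0.30 and -0.26. Under median centring its mean was -0.01. Gins2 was not a name on the array, and the probe named 4833427B12Rik, which RefSeq lists as a synonym of Gins2, had -0.25 and -0.22.

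The polymerases and primase lay closer to 0 than the helicase. Over the 8 genes the median was -0.18, 6 read lower on both arrays and 0 were clearly lower on both. Under median centring the median was 0.14, and 0 of the 8 read lower on both arrays. Pola1 and Pola2, the catalytic and accessory subunits of polymerase alpha, begin each new strand. Pola1 had -0.16 and -0.07, a mean of -0.11 ± 0.07 with a limma standard error of 0.08 and an adjusted p of 0.495. Pola2 had -0.33 and -0.09. The primase subunits, which lay down the RNA primer, had -0.10 and -0.28 for Prim1 and -0.38 and -0.11 for Prim2. The lowest value of this group on either array was thus the -0.38 of Prim2.

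Polymerase delta mainly copies the lagging strand and polymerase epsilon the leading strand. Their catalytic subunits had opposite signs on the arrays. Pold1 had -0.26 on array 1 and 0.14 on array 2. Pole had -0.36 and 0.03. The accessory subunits read lower on both arrays, with -0.33 and -0.08 for Pold2 and -0.09 and -0.20 for Pole2. The means of these subunits ran from -0.21 for Pold2 to -0.06 for Pold1, all above 0 under median centring.

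The clamp and its loader ranged from Rfc5, among the lowest of the machinery, to Rfc4 near 0. Pcna is the ring that tethers polymerases to DNA. After loess it had log2 intensities of 16.28 in control and 16.14 in knockdown on array 1, and of 16.46 in both channels on array 2. Its ratio was -0.13 on array 1 and 0.0017 on array 2, and its 10 spots on array 1 ranged from -0.19 to -0.02 with an SD of 0.05. The 8 spots of array 2 that carried no outlier flag ranged from -0.05 to 0.05 with an SD of 0.04. The spots of the arrays overlapped between -0.05 and -0.02, and 0 lay outside the range of array 1 and inside that of array 2. In Feature Extraction's processed signals Pcna had -0.15, and under median centring 0.45.

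Replication factor C opens the clamp and loads it. After loess Rfc5, one of its small subunits, had log2 intensities of 14.17 in control and 13.62 in knockdown on array 1, and 14.31 and 13.79 on array 2. The log2 ratios were -0.55 and -0.52. Their mean was -0.54 ± 0.03 (SD, n = 2; limma standard error 0.08), 1.45-fold lower, and the limma adjusted p was 0.177. Rfc5 read lower on both arrays, also under median centring with a mean of -0.19. The other small subunits were nearer to 0. Rfc2 had -0.38 and -0.12, and Rfc3 had -0.20 and -0.13. Rfc4 had -0.02 and 0.01, the smallest mean of the machinery in size. Rfc1, the large subunit, was not a name on the array, and the probe named Recc1, which RefSeq lists as a synonym of Rfc1, had -0.43 and -0.17. Over the 5 measured genes of clamp and loader the median was -0.17, with 3 lower on both arrays, and under median centring 0.14.

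Genes for single-strand binding and for joining of Okazaki fragments were mixed. Over the 5 genes the median was -0.20, 3 read lower on both arrays and 2 were clearly lower on both, while under median centring the median was 0.17. Replication protein A coats single-stranded DNA. Its middle subunit Rpa2 had -0.50 and -0.45, its large subunit Rpa1 had -0.21 and -0.20, and its small subunit Rpa3 had -0.14 and 0.07. Fen1, the nuclease that trims the flap of each fragment, had -0.34 and -0.46. Lig1, the ligase that seals the nick, had -0.44 on array 1 and 0.06 on array 2, the widest gap between the arrays of all 45 genes. Rpa2 and Fen1 stayed below 0 under median centring, at -0.19 and -0.12.

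Of the genes for nucleotide supply, 4 of the 5 read lower on both arrays, with a median of -0.30, or 0.10 under median centring. Tyms, the synthase that makes thymidylate, had -0.45 on array 1 and -0.52 on array 2 with its brightest probe. Rrm1 and Rrm2 encode the large and small subunits of ribonucleotide reductase, which makes deoxynucleotides. Rrm1 had -0.36 and -0.43, and Rrm2 had -0.17 and -0.43. Tk1, the kinase that salvages thymidine, had -0.02 and -0.36. Every one of these read lower on array 2 than on array 1. Dut, which removes dUTP, had 0.07 and -0.01 and was the only gene of the 45 with a mean above 0. In the processed signals the mean of Dut was -0.05.

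The chromatin assembly factor follows the clamp and places histones on new DNA. Chaf1a, its large subunit, had -0.36 and -0.11, and Chaf1b had -0.19 and -0.29. Ung, the glycosylase that removes uracil from DNA, had -0.39 and -0.45. All 3 read lower on both arrays after loess, with a median of -0.24, or 0.06 under median centring, and Ung alone of them kept a negative mean there, -0.14.

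**Figure D3:**
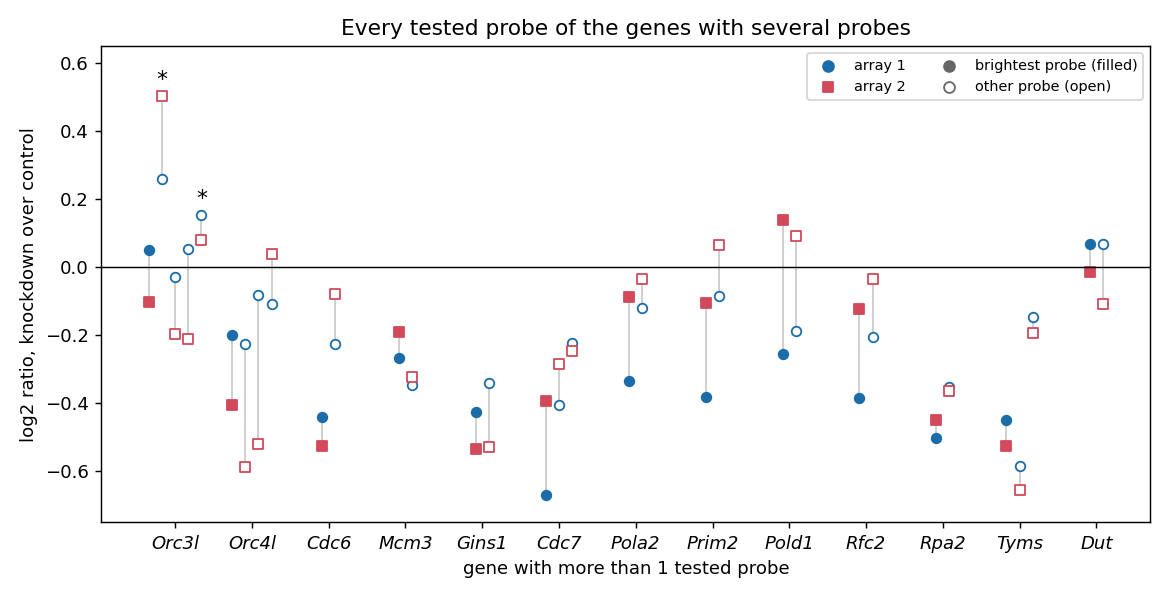
Log2 ratio of knockdown over control (vertical axis) for every tested probe of the 13 genes with more than 1 tested probe (horizontal axis), circles for array 1 and squares for array 2, filled for the brightest probe and open for the others; an asterisk marks the 2 Orc3l probes placed on the strand opposite the gene. The other probes of Gins1, Cdc7, Rpa2 and Tyms lie below 0 on both arrays, as their brightest probes do, after loess.

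Several genes were read by more than 1 probe, which shows how far a value rests on its probe. The 45 genes had 70 distinct probes, of which 65 passed the filter, and 13 genes had more than 1. Of the 14 further tested probes of genes that were lower on both arrays by their brightest probe, 12 were also lower on both. The second bright probe of Tyms had -0.58 and -0.66, below the -0.45 and -0.52 of the brightest, although 39 bases of a 40-base overlap are the same in both. Gins1 had -0.34 and -0.53 with its other probe, and the other Rpa2 probe had -0.35 and -0.36. The other Cdc7 probes had -0.41 and -0.29, and -0.22 and -0.25. All of these probes read lower on both arrays, with sizes that differed between probes of a gene. The second Cdc6 probe read only -0.23 and -0.08.

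Orc3l showed the widest disagreement. Its 3 probes on the gene's own strand had 0.05, -0.03 and 0.05 on array 1 and -0.10, -0.20 and -0.21 on array 2, so on array 1 only 1 of them was below 0. The 2 probes designed from the cDNA AK140926 lie on the opposite strand, at chr4:34756589-34756648 and chr4:34758895-34758954. They had 0.26 and 0.15 on array 1 and 0.50 and 0.08 on array 2. They carry the name Orc3l in the files, but by strand they would read a transcript from the other strand. The brightest probe, used above, was on the gene's strand, as were all 39 of the used probes whose strand could be compared with RefSeq.

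Genes with and without E2F-type letters in the promoter had overlapping ranges of ratios. The 13 with a match had a median log2 ratio of -0.23, from -0.53 for Cdt1 to -0.03 for Orc3l. The 26 without a match had -0.27, from -0.63 for Mcm10 to 0.03 for Dut. For CCAAT the medians were -0.29 with it, over 22 genes, and -0.24 without it, over 17. The ranges with and without E2F-type letters thus overlapped, but the lowest mean, of Mcm10, and the highest, of Dut, both lay in the class without a match. A promoter without these letters in the window may hold other forms of them.

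A further 54 genes of replication, covering helicase, polymerase, checkpoint, nucleotide and chromatin factors, were listed and all were measured. This list was chosen with earlier results of these data known, so it is not an independent check. After loess 39 of the 54 read lower on both arrays and 4 higher, against 29.4% and 40.6% of all genes tested. Their median was -0.17, and 10 were clearly lower on both, against 3.18%. Under median centring their median was 0.14, against 0.21 for all genes tested. There 9 of the 54 read lower on both arrays, against 12.2% of all genes, and 30 read higher. At an unadjusted limma p under 0.05 after loess, 16 were lower and 1 higher, against 7.44% and 13.4% of all genes tested. By the adjusted p 0 passed, as did 0% of all genes tested. The 4 lowest means belonged to genes of nucleotide metabolism. Nme1, a nucleoside diphosphate kinase, had -0.58 on array 1 and -1.19 on array 2. Shmt1, which makes one-carbon units for thymidylate, had -0.90 and -0.65. Dctd, the deoxycytidylate deaminase, had -0.44 and -0.98, and Cad, which starts pyrimidine synthesis, had -0.53 and -0.76. Each read lower on both arrays than the median of the machinery. The 4 genes higher on both arrays included Pold4, the smallest subunit of polymerase delta, with 0.61 and 0.15, and Rnaseh2c, a subunit of the nuclease that removes RNA from DNA, with 0.26 and 0.26. The other two were Samhd1, which degrades deoxynucleotides, and Dck, a salvage kinase. Samhd1 had 0.03 and 0.09, and Dck had 0.0022 and 0.10.

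**Figure D4:**
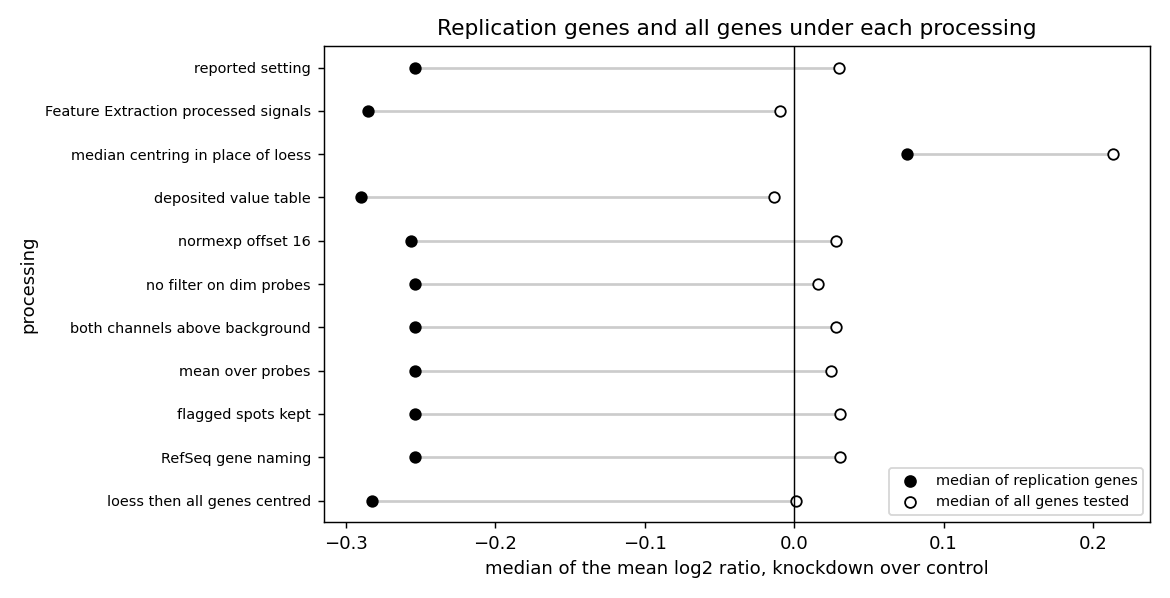
Median over genes of the mean log2 ratio of knockdown over control (horizontal axis) under each processing (vertical axis), filled for the replication genes and open for all genes tested. The row of the deposited table holds 40 replication genes and that of RefSeq naming 47, against 45 in the other rows. The number of all genes tested also differs between rows, from 16808 in the deposited table to 27803 with no filter on dim probes. The filled point lies left of the open one in every row, and it lies right of 0 only under median centring, at 0.08 against 0.21. The other rows hold values after loess or from Feature Extraction, so they are not separate checks on the balance of the dyes.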

How the data were processed

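Total RNA of C2C12 cells was measured on 2 two-colour Agilent arrays of 45018 spots, where per the labels Cy5 carried knockdown and Cy3 control RNA. Per the file headers and the submitters' processing notes, the authors extracted the spot intensity values with Agilent Feature Extraction 9.5.3.1, which also gave processed intensity, a log10 ratio and a single-array p-value. The deposited value table holds log2 ratios of the same arrays. Mean signals were background-corrected (limma 3.58.1 in R 4.3.3, normexp, offset 50) and loess-normalized within arrays (span 0.3), with control and flagged spots at weight 0. Spots of a probe were averaged. Probes entered the test where, on each array, 1 channel or both exceeded background well. A gene took its brightest probe, which left 18204 genes. The limma fit was an intercept with Benjamini-Hochberg adjustment over all genes at 0.05. On simulated data with the same dye offset at every brightness, the recovery of ratios by loess was checked. The p-values were not checked, and no offset that varies with brightness was simulated. An exact sign-flip test of 2 arrays cannot go below 0.5. Slide and replicate cannot be told apart, and the number of arrays limits the precision. Full statistics are given for the 3 lowest and the 3 highest replication genes with the same sign on both arrays, and other replication genes are named by the same rule for the 4 lowest and 4 highest of those with the same sign on both arrays. The alternatives were processed signals, median centring, the deposited table, another offset, other filters on dim probes, the mean over probes, flagged spots kept, RefSeq naming and each array alone. The genes and lists were chosen with earlier results of these data known.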

Additional observations from a re-analysis of the deposited data

How the results depend on the processing

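Processing by normexp with an offset of 16, no filter on dim probes, both channels above background, flagged spots kept and RefSeq naming turned the sign of 0 of the 45 gene means. With each array centred on its median in place of loess, the median over the 45 genes was 0.0753, 13 read lower on both arrays and 0 were clearly lower (-0.32 or below) on both. The means that turned positive there were Orc3l 0.25, Orc4l 0.00422, Gmnn 0.33, Mcm2 0.0753, Mcm3 0.27, Mcm4 0.41, Mcm6 0.0801, Mcm7 0.054, Pola1 0.19, Pola2 0.0425, Prim1 0.21, Prim2 0.0956, Pold1 0.24, Pold2 0.0449, Pole 0.13, Pole2 0.14, Pcna 0.45, Rfc2 0.14, Rfc3 0.11, Rfc4 0.32, Rpa1 0.19, Rpa3 0.30, Lig1 0.17, Rrm1 0.0175, Rrm2 0.0974, Tk1 0.18, Chaf1a 0.0557 and Chaf1b 0.0782, and the cause was not tested. Median centring called 3189 of all genes higher and 63 lower by limma, against 0 and 0 after loess, and 0 of the 45. Dut had -0.0523 in the processed signals and in the deposited table, and -0.0026 with loess and then centring on all genes, a setting chosen after seeing the data. Orc3l had 0.0555 as the mean over its probes. With the mean over probes 11 of the 45 were clearly lower on both arrays, against 13 with the brightest probe. On a single array the median over the 45 genes ran from -0.33 to -0.26, the number lower from 39 to 43, and the number clearly lower from 17 to 24. Left with a single array, the sign turned for Orc3l (0.0493 on array 1, -0.10 on array 2), Pold1 (-0.26 on array 1, 0.14 on array 2), Pole (-0.36 on array 1, 0.0254 on array 2), Pcna (-0.13 on array 1, 0.0017 on array 2), Rfc4 (-0.0231 on array 1, 0.0138 on array 2), Rpa3 (-0.14 on array 1, 0.0685 on array 2), Lig1 (-0.44 on array 1, 0.0647 on array 2) and Dut (0.0672 on array 1, -0.0142 on array 2). The call by the single-array p-value on both arrays, also chosen after seeing the data, gave 9 genes. Each array is itself the pair of knockdown and control, so the pairing was kept in its ratios. These ratios formed a single group in the limma fit.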
